A study of Mus musculus with 8 samples.

Results

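Crystallins are the bulk proteins of the eye lens, and 9 mouse crystallin genes were followed here, the α-crystallins Cryaa and Cryab, the β-crystallins Cryba1 and Crybb2, and the γ-crystallins Crygb, Crygc, Crygd, Cryge and Crygs. Every probe set that the chip's annotation assigns to 1 of these genes alone was taken, bright or dim, which gave 16 probe sets for the 9 genes, of the 12422 on the chip that are not controls. Each was kept apart, because the probe sets of a gene need not bind the same transcripts equally well. Of the 16, 15 passed the filter on low signals, a mean above 50 in at least 1 group, as did 10078 probe sets in all. The probe set that did not pass is Cryab 93279_at.

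RNA came from whole lenses of mice 10 days old, and MG-U74Av2 chips from Affymetrix gave 1 signal per probe set and array. There were 4 groups of 2 arrays: C57BL/6J lenses in which the gene for the gap junction subunit α3Cx46 (connexin 46, gene symbol Gja3) was knocked out (C57BL/6J KO), C57BL/6J lenses with the intact gene (C57BL/6J WT), 129SvJae KO and 129SvJae WT. C57BL/6J and 129SvJae are inbred strains, both sexes were used, no treatment was given, and lenses of a group were pooled, 20 to 30 at a time, with no statement of whether each array had a pool of its own. The knockout is of the whole animal, so it was present in every lens cell, and a pool hides the spread between animals. Nothing read here states that the 2 arrays of a group came from different animals. A limma p-value rests on the spread between arrays of a group, pooled over the 4 groups, which may be technical. That spread is also drawn toward that of other probe sets of like signal.

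In the lens, a single sheet of epithelial cells at the front feeds cells into a mass of elongated fiber cells, which lose their nuclei and fill with crystallins. The α-crystallins belong to the small heat shock proteins and act as chaperones that hold damaged proteins in solution, whereas the β- and γ-crystallins share a fold of their own and serve as densely packed structural proteins. Connexin 46 forms gap junction channels between fiber cells, and mice without it develop a nuclear cataract.

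The 8 arrays carried the RNA of lens fiber cells, in which Mip, the main membrane protein of fibers, averaged a signal of 13897. The knockout was visible in Gja3 itself, whose signal was 448 and 519 on the C57BL/6J KO arrays, 1968 and 3274 on the C57BL/6J WT arrays, 472 and 445 on the 129SvJae KO arrays and 1100 and 3381 on the 129SvJae WT arrays. The averaged log2 ratio of KO over WT was -2.23 (SE 0.29, limma adjusted p = 0.0160). The run records placed replicate 1 of all 4 groups in 1 scan session and 3 of the replicate 2 arrays in another. The array 129SvJae WT replicate 2 was in a session of its own. A communication error was noted for C57BL/6J WT replicate 1. A Crygd, Crygs or Cryaa probe set was the brightest on 6 of the 8 arrays, and on both 129SvJae KO arrays it was Rpl41, a ribosomal protein.

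Of the γ-crystallin genes, Cryge, Crygd, Crygc and Crygb follow one another on chromosome 1, and their proximal promoters are shown because the strain result below concerns 1 probe set of this closely related group. The windows are the 100 bases before the start given by RefSeq on GRCm38.p6, 5′ to 3′ on the strand of the gene. Capitals mark TATATA and TTTGTG, letters chosen after these sequences had been read and searched on both strands, and in Crygb the 2 TATATA matches overlap. Cryaa, an α-crystallin, is printed below them for comparison.
Cryge, chr1:65051164-65051263, minus strand: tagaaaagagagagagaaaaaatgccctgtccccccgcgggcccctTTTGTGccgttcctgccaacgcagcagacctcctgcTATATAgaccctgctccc
Crygd, chr1:65063441-65063540, minus strand: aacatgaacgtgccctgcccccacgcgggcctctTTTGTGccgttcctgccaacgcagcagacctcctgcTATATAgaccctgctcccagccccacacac
Crygc, chr1:65073533-65073632, minus strand: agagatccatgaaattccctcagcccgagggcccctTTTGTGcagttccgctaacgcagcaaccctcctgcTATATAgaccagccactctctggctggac
Crygb, chr1:65082291-65082390, minus strand: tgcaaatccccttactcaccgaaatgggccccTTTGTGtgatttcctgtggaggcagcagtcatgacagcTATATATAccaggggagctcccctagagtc
Cryaa, chr17:31677831-31677930, plus strand: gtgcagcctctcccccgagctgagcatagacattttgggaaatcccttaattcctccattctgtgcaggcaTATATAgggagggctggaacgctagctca
The windows of Cryge and Crygd were identical at 88.64% of 88 aligned bases, and those of Crygc and Cryge at 82.02% of 89, whereas Crygb and Crygd shared 64.21% of 95. In Cryge the start used lies inside the span of the annotated gene, and its TATATA begins at position -18 relative to that start, against -30 in Crygd and Crygb and -29 in Crygc and Cryaa. TATATA was found in 5 of the 8 crystallin windows that the table held, including 4 of 4 of these γ genes, and in 2.195% of 32851 windows of the same length. TTTGTG was found in 4 of the 8, all of them these γ genes, and in 6.03% of all windows. A match of letters is a description of the sequence only.

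Between the strains, a single crystallin probe set stood out. Cryge 96965_at, one of 4 probe sets for γE-crystallin, gave a signal of 3790 and 4606 in C57BL/6J KO lenses and 4394 and 5335 in C57BL/6J WT lenses, against 449 and 501 in 129SvJae KO lenses and 247 and 541 in 129SvJae WT lenses. Cryge 96965_at counts as dim here, with a mean signal of 2483, since the brightest Cryge probe set was 19.6 times as bright. All 4 C57BL/6J arrays lay above all 4 129SvJae arrays. Averaged over genotypes, the log2 ratio of C57BL/6J over 129SvJae was 3.43 (SE 0.22, a fold of 10.8, limma adjusted p = 3.578e-06). It was 3.14 in KO lenses (SE 0.31, a fold of 8.81, limma adjusted p = 0.000731) and 3.73 in WT lenses (SE 0.31, a fold of 13.2, limma adjusted p = 9.365e-05). C57BL/6J was higher in 4 of 4 pairs of arrays with the same genotype and replicate number, at log2 ratios of 3.08 and 3.20 for KO and 4.15 and 3.30 for WT. The dim Crygd probe set 162268_at was also higher in C57BL/6J in 4 of 4 pairs, but by 0.10 and 0.28 for KO and 0.27 and 0.60 for WT, an averaged log2 ratio of 0.31 (SE 0.28, limma adjusted p = 0.927). In each of the 3 comparisons Cryge 96965_at ranked 2 by p-value among all tested. Without a trend in the variance prior, the averaged difference missed the threshold (limma adjusted p = 0.0630), as did both single-genotype differences.

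The other 3 Cryge probe sets did not share this difference. Cryge 103026_f_at read 50194 and 37560 on the C57BL/6J KO arrays, 67390 and 39387 on the C57BL/6J WT arrays, 46520 and 34818 on the 129SvJae KO arrays and 68666 and 45755 on the 129SvJae WT arrays. Its averaged strain log2 ratio was -0.01 with a 95% interval of -0.44 to 0.43, and that of Cryge 97579_f_at was 0.04 with an interval of -0.41 to 0.50. Cryge 162018_r_at, which is dim, read 774 and 473 on the C57BL/6J KO arrays, 595 and 651 on the C57BL/6J WT arrays, 722 and 533 on the 129SvJae KO arrays and 1047 and 996 on the 129SvJae WT arrays. The strain log2 ratio of that probe set was -0.37 averaged (interval -0.82 to 0.07, limma adjusted p = 0.812), -0.03 in KO lenses and -0.71 in WT lenses. Both intervals of the bright Cryge probe sets lie far below the ratio of 96965_at, so that the probe sets of 1 gene gave different answers. Those 2 probe sets were among the brightest on the chip, and whether signals that high still follow the amount of RNA was not tested. The suffixes _f_at and _r_at are the manufacturer's marks for probe sets that share sequence with related genes or broke a design rule, and 96965_at carries neither. The sequences of the probes were not used here, and whether the difference lies in the amount of Cryge transcript, in its sequence between the strains or in binding by a neighbouring γ-crystallin was not tested.

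**Figure D1:**
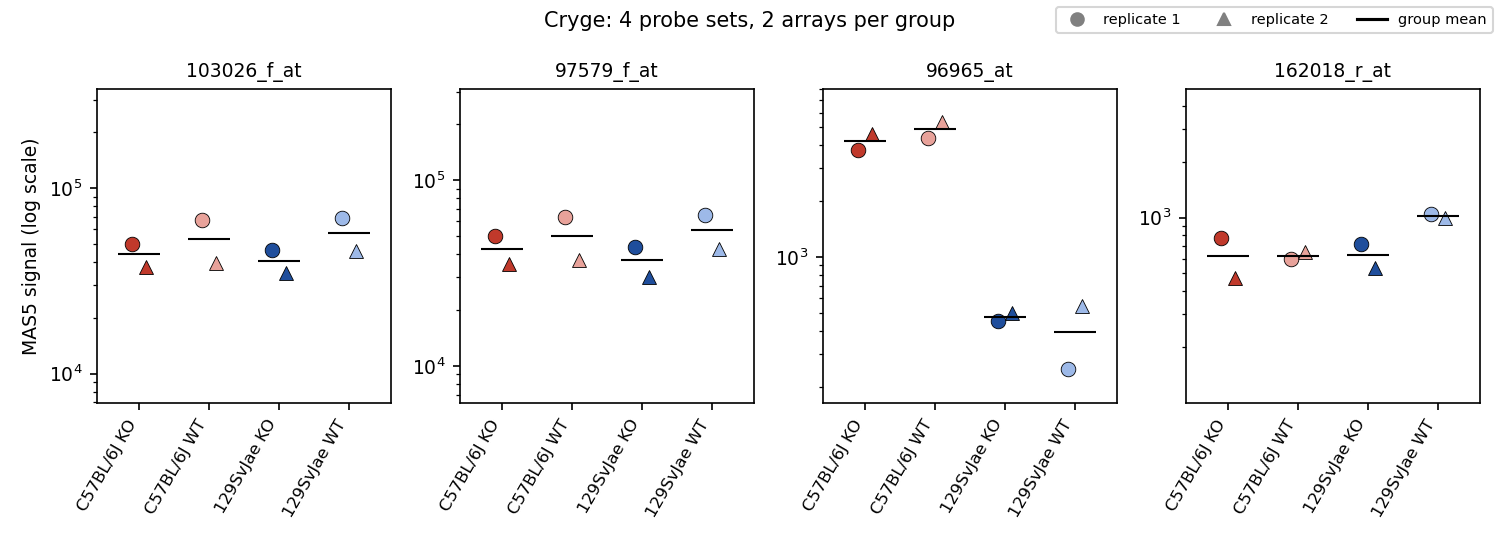
Signal of the 4 Cryge probe sets (log axis, each panel spanning the same fold range) in the 4 groups, with circles for replicate 1, triangles for replicate 2 and lines for group means. Only in 96965_at do the C57BL/6J arrays, at 3790 to 5335, lie apart from the 129SvJae arrays, at 247 to 541.

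Cryge 96965_at was the 1 crystallin probe set of 15 called in each strain comparison. Over all 10078 tested probe sets, 0.367% were called for the strain difference averaged over genotypes, 0.0893% in KO lenses and 0.0695% in WT lenses. At an unadjusted p under 0.05 the crystallins counted 1 of 15 averaged, 1 in KO lenses and 2 in WT lenses, beside 6.97%, 3.73% and 6.47% of all probe sets. Arrays of the strains failed to overlap, with C57BL/6J higher, in 1 of 15 crystallin probe sets and in 2.95% of all. The other 14 had averaged strain log2 ratios between -0.37 and 0.31 with a median of 0.02, beside 0.01 for all probe sets, and the smallest limma adjusted p among them was 0.812.

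Neither α-crystallin passed the test between strains. Cryaa 102393_at, for αA-crystallin, which is largely restricted to the lens, read 55641 and 38446 on the C57BL/6J KO arrays, 72806 and 41075 on the C57BL/6J WT arrays, 49517 and 31275 on the 129SvJae KO arrays and 67986 and 48001 on the 129SvJae WT arrays. Its averaged strain log2 ratio was 0.09 (95% interval -0.39 to 0.56). Cryab 162308_f_at, for αB-crystallin, which many other tissues also make, read 9823 and 10526 on the C57BL/6J KO arrays, 11297 and 12932 on the C57BL/6J WT arrays, 10591 and 8845 on the 129SvJae KO arrays and 8822 and 11753 on the 129SvJae WT arrays, with a strain log2 ratio of 0.16 (interval -0.15 to 0.47). In both genes the arrays of the strains overlapped. The second Cryab probe set, 93279_at, stayed under 50 on 6 of 8 arrays and averaged 33.2 and was not tested, although the other probe set of the gene was bright.

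The β-crystallins likewise overlapped between strains. Cryba1 104518_at, for the βA3/A1-crystallins, had a strain log2 ratio of -0.03 (interval -0.48 to 0.42), and Crybb2 100688_at, for βB2-crystallin, 0.02 (interval -0.34 to 0.37). Among the γ-crystallins, Crygb 93457_at was at -0.00 (interval -0.36 to 0.36), Crygc 96586_at at 0.04 (-0.35 to 0.43), and Crygd 104171_f_at at 0.00 (-0.48 to 0.48). Crygs 93391_at, for γS-crystallin, which stands outside the chromosome 1 group, was at 0.03 (-0.37 to 0.42). Intervals of this width do not show that the strains have equal levels.

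**Figure D2:**
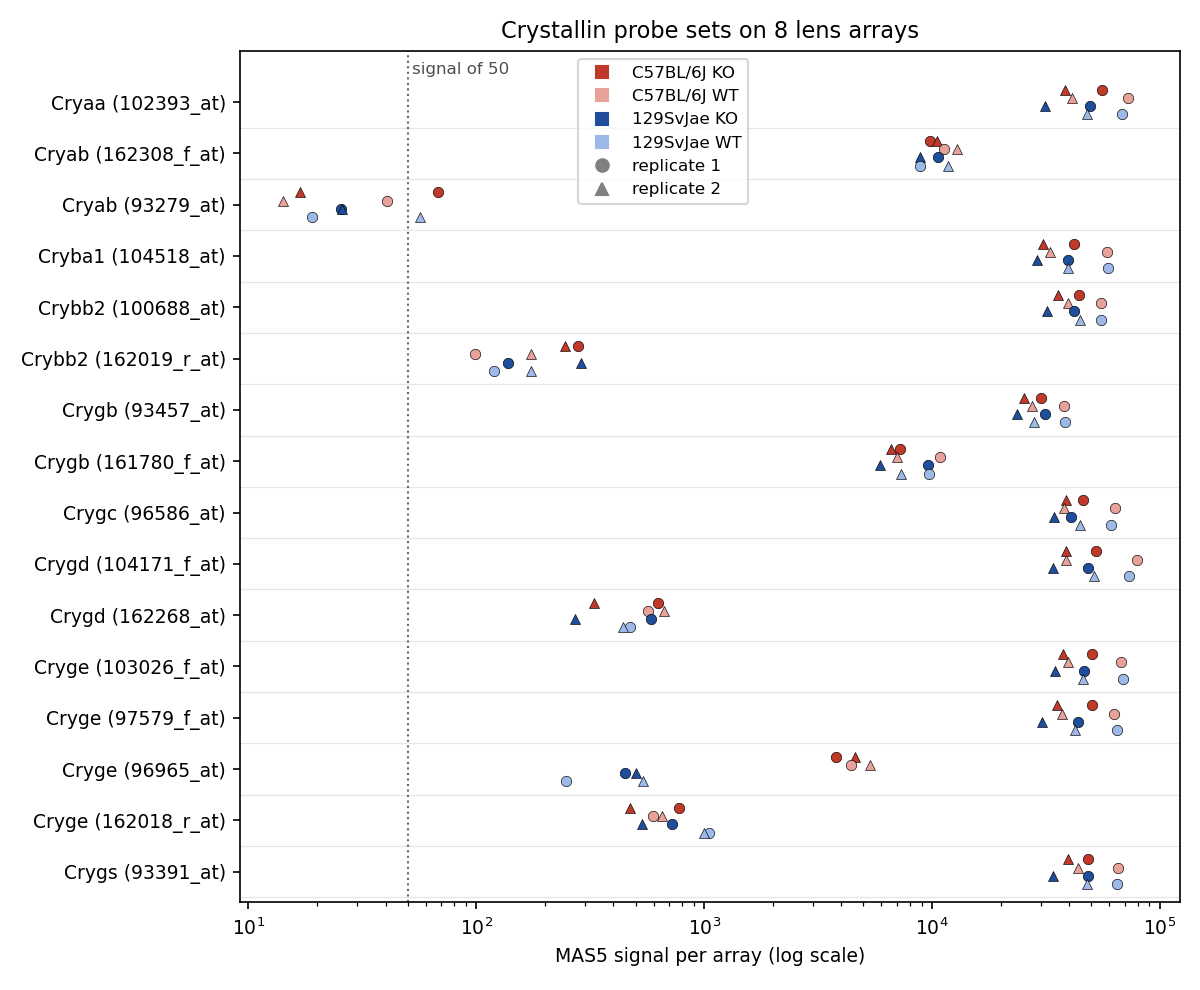
Signal on each of the 8 arrays (horizontal log axis) for all 16 crystallin probe sets, with colour for the group, circles for replicate 1 and triangles for replicate 2. Cryge 96965_at splits by strain, Cryab 93279_at lies mostly under the dotted line at 50, and the brightest probe sets are higher on replicate 1 in each group.

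The effect of the α3Cx46 knockout on crystallins was tested in each strain and averaged. No crystallin probe set of 15 was called in any of the 3 comparisons by limma after adjustment, beside 0.00992% of all probe sets in C57BL/6J lenses, 0% in 129SvJae lenses and 0.0198% averaged. At an unadjusted p under 0.05 there were 0 crystallins in C57BL/6J lenses, 1 in 129SvJae lenses (Cryge 162018_r_at, at a log2 ratio of -0.72) and 0 averaged, beside 2.31%, 3.12% and 3.05% of all probe sets. The methods' t-test gave 0 in each, adjusted or not. The averaged log2 ratio of KO over WT was negative for 13 of the 15, with a median of -0.35, beside -0.02 for all probe sets. The median was -0.24 in C57BL/6J lenses and -0.45 in 129SvJae lenses. All 3 medians depended on single arrays. With C57BL/6J KO replicate 1 or 2 left out, the C57BL/6J median was -0.40 or -0.08, and with C57BL/6J WT replicate 1 or 2 left out, 0.00 or -0.58. With 129SvJae KO replicate 1 or 2 left out, the 129SvJae median was -0.69 or -0.21, and with 129SvJae WT replicate 1 or 2 left out, -0.23 or -0.67. The averaged median lay between -0.47, without 129SvJae KO replicate 1, and -0.18, without C57BL/6J WT replicate 1. Quantile normalization, which forces the brightest values of all arrays to be equal, left an averaged median of -0.03.

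Single values show these differences beside the spread of the arrays, much of which followed the replicate number in KO and WT lenses alike. Crygd 104171_f_at, for γD-crystallin, read 52344 and 38767 on the C57BL/6J KO arrays, 79380 and 38726 on the C57BL/6J WT arrays, 48455 and 33962 on the 129SvJae KO arrays and 73460 and 51533 on the 129SvJae WT arrays. KO and WT arrays overlapped, and the averaged log2 ratio was -0.45 (SE 0.22, limma adjusted p = 0.998). Cryba1 104518_at read 41842 and 30722 on the C57BL/6J KO arrays, 58483 and 32795 on the C57BL/6J WT arrays, 39639 and 28839 on the 129SvJae KO arrays and 59020 and 39650 on the 129SvJae WT arrays, a log2 ratio of -0.40 (SE 0.21). Cryaa 102393_at was at -0.39 (SE 0.22). Crygs 93391_at read 48211 and 39670 on the C57BL/6J KO arrays, 65613 and 43606 on the C57BL/6J WT arrays, 48484 and 34001 on the 129SvJae KO arrays and 64595 and 47850 on the 129SvJae WT arrays, a log2 ratio of -0.37 (SE 0.18). In each of these the replicate 1 arrays were the higher of their group. With the replicate number as a block the ratios stayed the same and the SE was 0.11 for Crygd 104171_f_at, 0.099 for Cryba1, 0.095 for Cryaa and 0.093 for Crygs, with a limma adjusted p of 0.919 for each. The KO array was the lower in 4 of 4 pairs for Cryba1, Cryaa and Crygs and in 3 of 4 for Crygd 104171_f_at.

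Over the 8 arrays, signals ran from 34331 to 63222 for Crygc 96586_at, from 32109.8 to 55104 for Crybb2 100688_at, from 30249.8 to 65081 for Cryge 97579_f_at, from 23665 to 38387 for Crygb 93457_at, from 5900 to 10893 for Crygb 161780_f_at and from 270.4 to 666 for Crygd 162268_at. The remaining bright probe sets had averaged KO log2 ratios of -0.37 for Cryge 97579_f_at, -0.36 for Cryge 103026_f_at, -0.35 for Crygc 96586_at, -0.33 for Crybb2 100688_at, -0.25 for both Crygb probe sets and -0.16 for Cryab 162308_f_at. The KO log2 ratio of Cryge 96965_at, the probe set that separated the strains, was 0.08 (95% interval -0.39 to 0.56). Only 1 other crystallin probe set was positive. Crybb2 162019_r_at, a dim probe set, read 278 and 245 on the C57BL/6J KO arrays, 99.0 and 175 on the C57BL/6J WT arrays, 138 and 288 on the 129SvJae KO arrays and 120 and 173 on the 129SvJae WT arrays. Its averaged log2 ratio was 0.73 (SE 0.35, limma adjusted p = 0.998), opposite in sign to the bright Crybb2 probe set. The dim Crygd probe set, 162268_at, was negative like its bright partner, at -0.32 (SE 0.28).

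Set against the WT array of the same strain and replicate number, the KO array was lower in 4 of 4 pairs for 8 of the 15 crystallin probe sets. That is 53.3% of them, beside 8.00% of all probe sets, most of which are far dimmer. Of the 18 other probe sets with a mean signal above 20000, 10 were also lower in all 4 pairs. KO and WT arrays did not separate without overlap, KO lower, for any crystallin, beside 1.22% of all. The second C57BL/6J pair was close to 0 for most bright members, at -0.10 for Cryaa, 0.02 for Crygc and 0.00 for Crygd 104171_f_at, and the other 3 pairs lay farther below 0. The arrays of the second 129SvJae pair came from different scan sessions, so genotype and session cannot be told apart in it. Within the session that holds replicate 1 of every group, a restriction chosen after seeing the data, the crystallin median was -0.33 in C57BL/6J lenses and -0.41 in 129SvJae lenses. With the replicate number as a block, 10 of the 15 reached an unadjusted p under 0.05 in the averaged comparison, beside 4.97% of all probe sets. After adjustment it was 0 (lowest limma adjusted p = 0.919). The bright crystallins varied together over the arrays, with Pearson's r of 0.940 or more, so these counts are not of independent members.

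**Figure D3:**
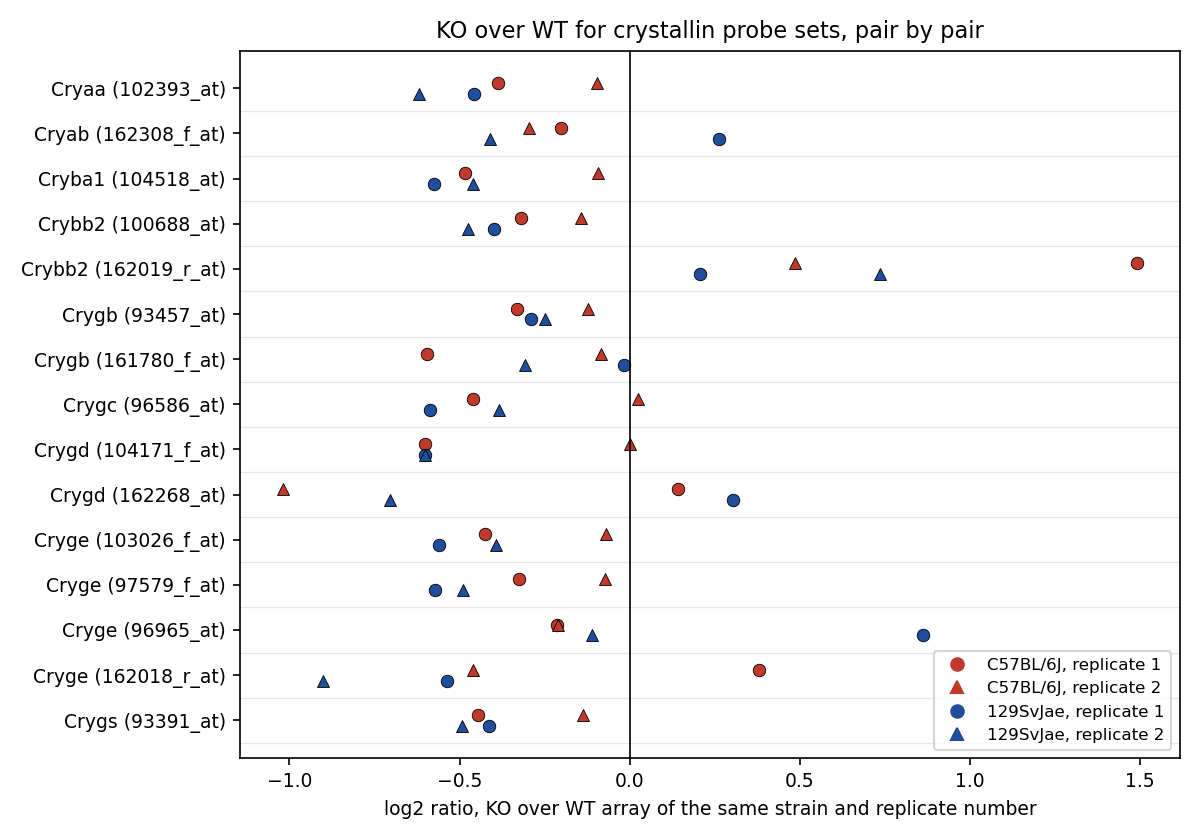
Log2 ratio of the KO array over the WT array of the same strain and replicate number (horizontal axis) for the 15 tested crystallin probe sets, red for C57BL/6J and blue for 129SvJae, circles for replicate 1 and triangles for replicate 2. Most bright probe sets lie left of 0 in every pair, with the second C57BL/6J pair nearest to 0, and Crybb2 162019_r_at lies right of 0 in all 4. The arrays of the second 129SvJae pair came from different scan sessions.

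Other very bright probe sets also leaned the same way. The 9 crystallin probe sets with a mean signal above 20000 had averaged KO log2 ratios between -0.45 and -0.25 (median -0.37). The 18 other probe sets above that level had a median of -0.19, between -0.28 and 0.07, and 16 of them were negative. None of those 18 reached the crystallin median, and 10 of the 18 were lower in all 4 pairs, as were 7 of the 9 crystallins. The gap was narrower in C57BL/6J lenses, where the medians were -0.24 for the crystallins and -0.16 for the others, all 18 of the others were negative and 2 of them lay below the crystallin median. In 129SvJae lenses the medians were -0.48 and -0.21, and none of the 18 lay below the crystallin median. Whether the gap differs between strains was not tested. Above 10000 the medians were -0.36 for 10 crystallins and -0.09 for 61 others. Brightness also went with replicate number: replicate 1 exceeded replicate 2 for the 9 bright crystallins by a median log2 ratio of 0.42 for C57BL/6J KO, 0.77 for C57BL/6J WT, 0.46 for 129SvJae KO and 0.50 for 129SvJae WT, beside 0.07 to 0.10 for all probe sets. Across the 8 arrays these 9 probe sets varied together, with Pearson's r of 0.940 to 0.999 between pairs, which share the array's scale and, among the γ genes, much of their sequence. With the scan session as a block, to which 129SvJae WT replicate 2 adds nothing since it is alone in its session, the crystallin median was -0.31 averaged, -0.24 in C57BL/6J lenses and -0.44 in 129SvJae lenses. That fit leaves 1 array for 129SvJae WT, so counts at a threshold are not given for it. The part of brightness in the KO ratios was not tested.

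**Figure D4:**
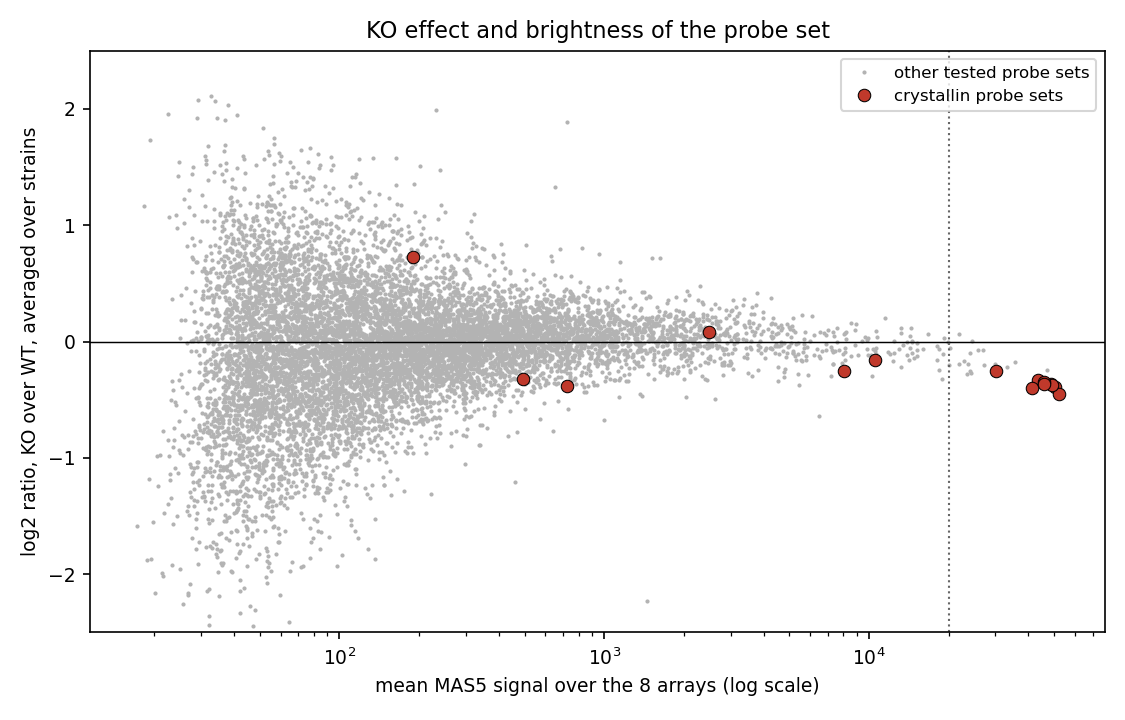
Averaged log2 ratio of KO over WT (vertical axis) against the mean signal over the 8 arrays (horizontal log axis) for all tested probe sets, crystallins in red, with a dotted line at 20000 and 9 probe sets outside the vertical range of 2.5 either way. The brightest crystallins lie between -0.45 and -0.25, below most other probe sets of like brightness.

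The KO effect was compared between strains by the interaction term. No crystallin was called (0 of 15 by limma, adjusted or at an unadjusted p under 0.05), beside 0% of all probe sets adjusted and 2.11% unadjusted. The widest interaction estimates were 0.68 (SE 0.41) for Cryge 162018_r_at and -0.59 (SE 0.44) for Cryge 96965_at, positive where the KO over WT ratio was higher in C57BL/6J.

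Genes around the crystallins were read from lists. No other lens crystallin of 7 listed had a probe set with 1 symbol, and none was analysed here. Of enzymes and relatives that carry a crystallin name, 4 probe sets of Cryz (ζ-crystallin, a quinone reductase), Cryl1 and Crybg1 were tested and 0 were called for strain or knockout (limma). Of transcription factors known to act on crystallin genes, 20 probe sets of 17 genes were tested and 0 were called, with a median KO log2 ratio of 0.03 and a median strain log2 ratio of 0.13. Those with the smallest unadjusted p were Prox1, a homeodomain factor of fiber differentiation, and Nrl, a factor of the Maf family, at KO log2 ratios of 0.47 (SE 0.21) and -1.09 (SE 0.48), and Sox1, which γ-crystallin expression requires, and Maf, an activator of crystallin genes, at strain log2 ratios of 1.03 (SE 0.43) and 0.88 (SE 0.40). All 4 had a limma adjusted p of 0.634 or more.

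Of lens fiber cell markers, 11 probe sets of 9 genes were tested and only Gja3 was called, lower in KO. Their median KO log2 ratio was -0.12, beside -0.02 for all probe sets, and 8 of the 11 were negative. The fiber markers' summed signal ran from 80540 to 89821 on the 4 KO arrays and from 93830 to 101019 on the 4 WT arrays, and without Gja3 it ran from 80096 to 89301 on KO arrays and from 90449 to 99051 on WT arrays. No crystallin probe set separated KO from WT arrays in this way. Whether these sums and the crystallins move together from array to array was not tested. The sums rest mostly on a few bright probe sets, such as Bfsp1 and Fabp5, at mean signals of 26915 and 23715. Bulk lens RNA cannot tell fewer fiber cells apart from less RNA per cell. Of lens epithelium markers 0 of 13 were called, with a median KO log2 ratio of -0.00. Pigment cell markers summed to a signal of 348 to 379 on the C57BL/6J KO arrays, 220 to 688 on the C57BL/6J WT arrays, 189 to 396 on the 129SvJae KO arrays and 317 to 587 on the 129SvJae WT arrays. Retina markers summed to 529 to 977 on the C57BL/6J KO arrays, 620 to 652 on the C57BL/6J WT arrays, 437 to 774 on the 129SvJae KO arrays and 844 to 1530 on the 129SvJae WT arrays, the highest of the 4 groups. Of 12 retina probe sets, 8 passed the filter on low signals. Crx was above 50 on all 8 arrays, whereas Rcvrn of the photoreceptors was under 50 on every array. Cornea markers summed to between 302 and 881 and blood and vessel markers to between 860 and 1285 over all arrays. No marker of these lists was called, and their part in the crystallin ratios was not tested.

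By Pearson's r over the 8 arrays, 8905 probe sets were compared with the mean profile of the 15 crystallins. The most alike were those of Epha8 (0.978), Krt2 (0.975), Klk1b5 (0.967), Coq10a (0.958) and Prps2 (0.951). Those of Klk1b5 and Prps2 had low mean signals, of 32.7 and 52.2. As the highest of many correlations over 8 arrays, these values are a description and were not tested. The profile itself, as mean centred log2 signal, was 0.21 and -0.12 on the C57BL/6J KO arrays, 0.39 and 0.03 on the C57BL/6J WT arrays, -0.10 and -0.46 on the 129SvJae KO arrays and 0.13 and -0.07 on the 129SvJae WT arrays. Replicate 1 was the higher array in each group. Most of the strain difference in this profile comes from the 1 probe set Cryge 96965_at. Its averaged strain log2 ratio was 3.43, beside a median of 0.02 for the other 14.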

How the data were processed

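RNA from mouse lenses was measured on 8 MG-U74Av2 arrays, 2 for each of 4 groups taken from the sample labels. The values deposited by the authors are intensity values from MAS5 (version not given), which they had scaled to a mean of 250. The run records deposited with the arrays, whose values are of other kinds, gave the scan sessions. In R 4.3.3 with limma 3.58.1, arrays were rescaled to a trimmed mean of 250 (2% off each end), the 1 value at or under 0 was set to 1, and log2 was taken. The 66 control probe sets were left out, and the 10078 probe sets whose mean passed 50 in 1 group or more were tested. One limma fit of 4 group means with a variance trend (4 residual and 9.17 prior degrees of freedom) gave all contrasts, with Benjamini-Hochberg adjustment over all tested and calls at 0.05. The fit was run on simulated data with a strain effect and independent noise for each array. Those data held no KO effect and no shift shared by arrays of the same replicate number. The number of arrays limits the precision.

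Names came from probe sets with 1 symbol (10833, against 396 with several and 1193 with none). Dim means a mean of at most 50 or under 1/10 of the gene's brightest probe set. Named were all crystallin probe sets, the tested crystallin relatives, Gja3, Rpl41 and the 5 probe sets of most similar profile. Transcription factors were named by smallest unadjusted p, and Mip, Bfsp1, Fabp5, Crx and Rcvrn for their signal level. The crystallins and lists were chosen with earlier results of these data known. Same-numbered arrays shared their deviations from the group means (r of 0.129 to 0.206 in all 6 pairs of groups), so the numbers were taken as pairs. Alternatives were other scalings, offsets, filters, priors, blocks, the methods' t-test and each array left out.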

Additional observations from a re-analysis of the deposited data

How the results depend on the processing

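The count of crystallin probe sets called was the same in 153 recomputations and moved in 7. Most of the 153 are KO and interaction counts, which stayed at 0 throughout. Some leave out a single uncalled Cryge probe set, which could not change the count. For the strain difference in WT lenses it was 0 with no variance trend, 0 with the methods' t-test adjusted and 0 with that test at the methods' thresholds. In KO lenses it was 0 with no variance trend and 0 with the methods' t-test adjusted. Averaged over genotypes it was 0 with no variance trend. It was also 0 without probe set 96965_at, an alternative chosen after seeing the data. That outcome was fixed in advance, since no other crystallin was called. No array left out changed a count. The averaged strain log2 ratio of Cryge 96965_at ran from 3.15 without 129SvJae WT replicate 1 to 3.72 without 129SvJae WT replicate 2, and its limma adjusted p from 2.144e-07 to 0.0630. The range of its log2 ratio was 2.998 to 3.28 in KO lenses and 3.16 to 4.29 in WT lenses. Under quantile normalization 2 KO ratios turned positive, Crybb2 100688_at at 0.019 and Crygc 96586_at at 0.021, and the median crystallin KO log2 ratio in 129SvJae lenses was -0.06. With a replicate block, 9 of 15 crystallins in 129SvJae lenses and 2 in C57BL/6J lenses reached an unadjusted p under 0.05 for the KO effect (limma). The share of all probe sets at that level was not counted for either strain, so these counts have no background. After adjustment 0 crystallins were called in either strain, beside 0 of all probe sets in each. No strain call changed under this block: 1 probe set in each comparison. Over all probe sets the averaged strain count was 37, but 1 with no variance trend, 58 with the replicate block and 129 at the methods' thresholds. Centring each array on its median gave all probe sets a median KO log2 ratio of 0.09 in 129SvJae lenses, against -0.05 otherwise. With 2 arrays a group, the size of difference that could be detected was not measured for the KO effect.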
